A study of Mus musculus with 2 samples.

Results

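Cytosolic and mitochondrial heat shock proteins were examined in ribosome profiling libraries of mouse spinal cord. The set holds 9 of the 12530 mouse genes listed in both deposited tables. Its members were chosen by Ensembl identifier, by a rule that uses none of their values, and that rule itself pairs each identifier with a symbol. The members were nevertheless chosen with earlier results of these data known. They are Hspa8, Hspa4, Hsp90aa1, Hsp90ab1, Hspb1, Hspb8, Cryab, Hspd1 and Hspe1. One library came from mice heterozygous for Gars C201R, a missense allele of the gene for glycyl-tRNA synthetase, which attaches glycine to its tRNAs. The other came from wild-type mice. Lysates of 3 animals were pooled into each library, and the labels give neither their ages nor their sexes. Pooling leaves no spread between animals in the tables, so neither genotype has a replicate and the genotypes are compared without a p-value. The labelled tissue was not checked against marker genes, because the tables give Ensembl identifiers and the reference table used here does not pair them with symbols.

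Heat shock proteins are chaperones that bind unfolded or newly made proteins and hold, refold or deliver them for degradation. HSP70 proteins bind exposed hydrophobic stretches in an ATP-driven cycle, HSP90 proteins complete the folding of kinases and receptors, and small heat shock proteins hold unfolded proteins without using ATP. In mitochondria the HSP60 chaperonin and its HSP10 lid enclose imported proteins while they fold. Motor axons depend on this system over long distances, and human mutations in HSPB1 and HSPB8 cause inherited motor neuropathies, a disease group to which GARS mutations also belong.

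The heterozygous library held 3491159 reads in genes and the wild-type library 7770935, a 2.23-fold difference in depth. Ribosome profiling counts short mRNA fragments protected by ribosomes, so the reads of a gene depend on the amount of its mRNA, on how often it is translated and on how fast ribosomes move along it. In whole tissue, fewer cells of a type and less RNA per cell cannot be told apart either. A ratio here is the log2 of heterozygous over wild-type reads after scaling of the libraries with TMM. Its 95% interval covers counting error only. A call of higher or lower asked for 3 things of a gene: at least 100 reads over both libraries, an interval that left out equal levels, and a difference of 1.5-fold or more.

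None of the 9 heat shock genes was called higher or lower in the heterozygous library. Hspb8, Hspa8 and Cryab had more scaled reads in the heterozygous library, at 1.37-fold, 1.36-fold and 1.14-fold, with counting intervals that excluded equal levels. Hspa4, Hsp90aa1 and Hsp90ab1 had fewer, at 0.734, 0.744 and 0.767 of the wild-type level, and their intervals excluded equal levels too. Hspb1 stood at 0.769 and Hspd1 at 0.993, with intervals that held equal levels. Hspe1 had 58 reads in both libraries together, under the minimum, so 8 of the 9 members were tested. Over the whole table, 8.14% of the 9726 tested genes were called higher, 11.2% lower and 19.3% in either direction, against 0 of 8 heat shock genes. The balance of higher to lower turned with total gene reads as the scaling, to 952 higher and 919 lower, against 792 and 1087 with TMM. By the interval alone, 23.7% of tested genes were higher and 28.2% lower, 51.9% in all, against 3 and 3 of the 8 heat shock genes. The width of an interval depends on reads, and the share by the interval alone was not computed for genes of similar reads. The median log2 ratio was -0.19 over the 8 tested members and -0.03 over all tested genes. With Hspe1 included the median over the 9 members was -0.38, the ratio of Hspb1.

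**Figure D1:**
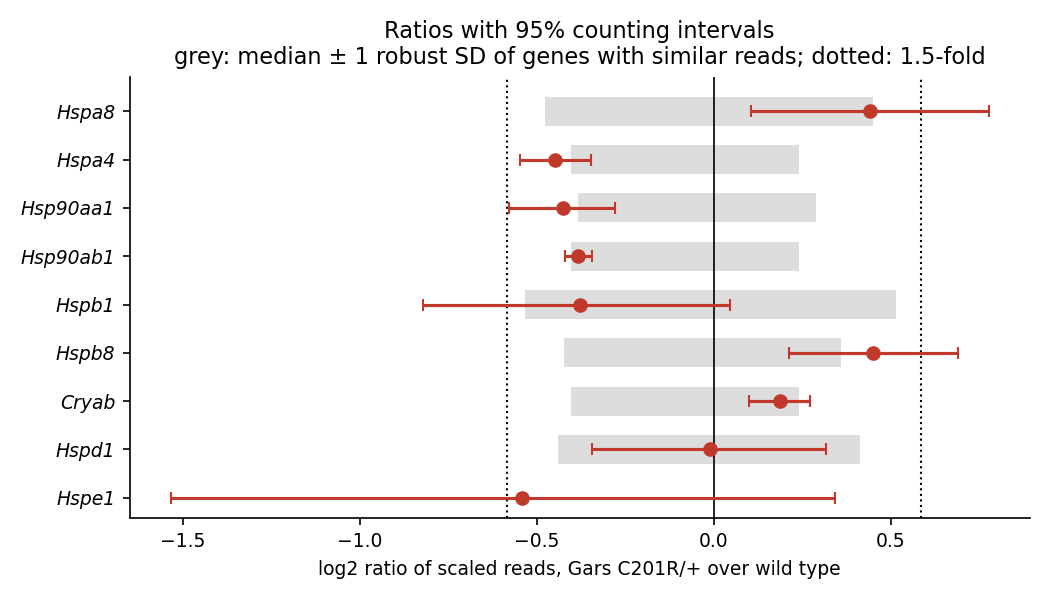
The plot gives, for each heat shock gene, the log2 ratio of scaled reads in the heterozygous over the wild-type library, with its 95% counting interval. Grey bars show the median and 1 robust SD on either side for genes with similar reads, and dotted lines mark 1.5-fold. Every point lies inside the dotted lines, from -0.54 for Hspe1, which is under the read minimum and has no grey bar, to 0.45 for Hspb8.

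Counting error was the smaller part of the spread between the libraries. When the tested genes were split into 10 groups by reads, the robust SD of the log2 ratio was 0.32 in the group with the most reads, which holds Hsp90ab1, Hspa4 and Cryab. It was 0.34 in the group of Hsp90aa1, 0.39 in that of Hspb8, 0.43 in that of Hspd1, 0.46 in that of Hspa8 and 0.52 in that of Hspb1. In these groups the share of genes called in either direction ran from 7.71% in the group with the most reads to 24.4% in that of Hspb1. Measured from the median of the group, 5 of the 8 tested members lay within 1 robust SD and all 8 within 2. The farthest were Hspb8 at 1.23, Hspa4 at -1.14 and Hsp90aa1 at -1.13 robust SDs from that median. The 6 intervals that excluded equal levels are thus narrower than the spread that genes of similar reads showed between these libraries.

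**Figure D2:**
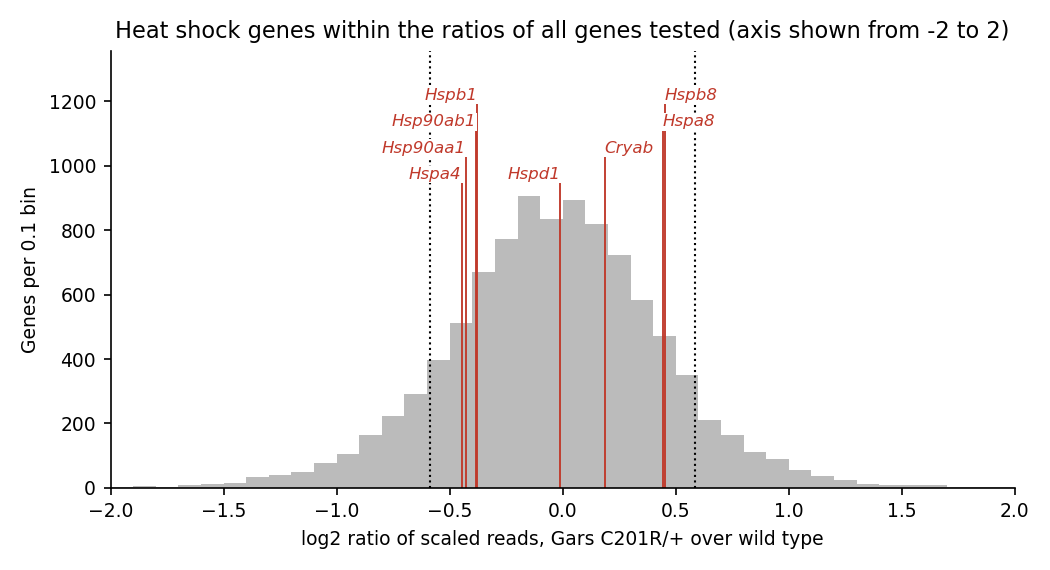
Grey bars count the tested genes by log2 ratio of scaled reads in the heterozygous over the wild-type library, in bins of 0.1, and red lines mark the 8 tested heat shock genes. Hspb8 and Hspa8 stand to the right, Hspa4, Hsp90aa1, Hsp90ab1 and Hspb1 to the left, and all lie between the dotted lines at 1.5-fold.

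Levels of different genes were compared as deposited RPKM, which divides reads by library size and by gene length, here from 774 nt for Hspe1 to 4618 nt for Hspa4. Whether that length is coding sequence alone is not stated in the sources used here, and levels per coding length were not computed. The order of genes and the proportions between them depend on these lengths, whereas ratios between libraries do not. Hsp90ab1 and Cryab stood far above the other members in both libraries. Hsp90ab1 reached 899 RPKM in the heterozygous library and 1135 RPKM in the wild-type library, where it ranked 33 and 23 among all genes. Cryab followed with 504 RPKM in heterozygous and 429 RPKM in wild-type tissue, at ranks 74 and 95. The next member, Hspa4, was at 66.2 RPKM in heterozygous and 87.5 RPKM in wild-type tissue. By deposited RPKM the order of the first 4 members was Hsp90ab1, Cryab, Hspa4 and Hsp90aa1 in both libraries, with each step larger than counting error. Below them, the levels of Hsp90aa1 and Hspb8 differed by less than counting error in the heterozygous library, with a ratio of 1.15 (0.985 to 1.35), while in the wild-type library Hsp90aa1 was 2.12 times Hspb8 (1.89 to 2.38). Hspb1 and Hspa8, and Hspa8 and Hspd1, were neighbours within counting error in the heterozygous library, as were Hspb8 and Hspb1 in the wild-type library. Hspe1 was last in both.

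**Figure D3:**
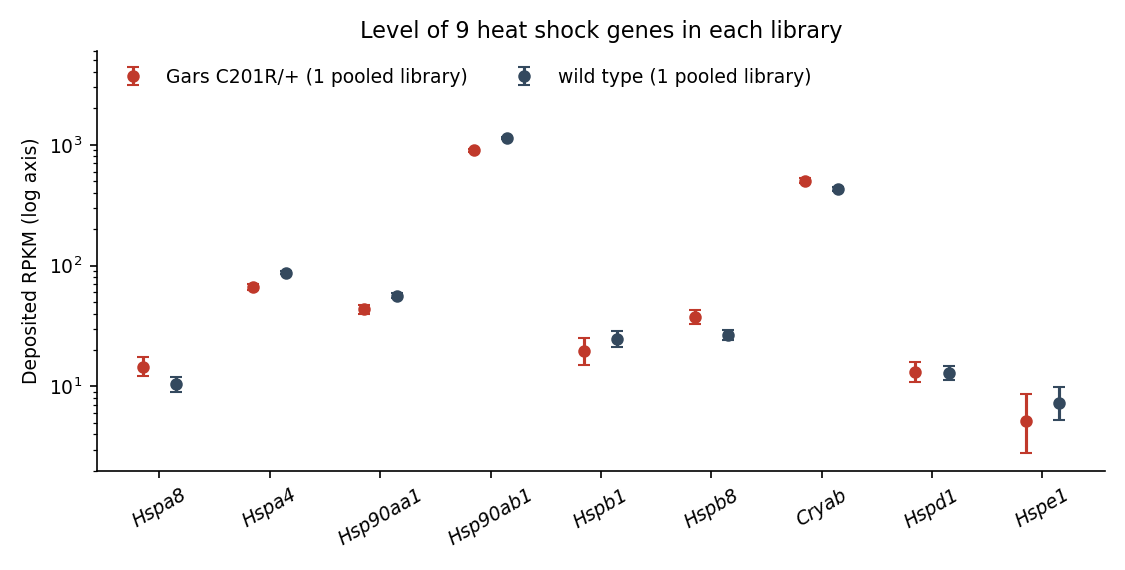
Points give the deposited RPKM of each heat shock gene on a log axis, with the heterozygous library left of the wild-type library and 95% Poisson intervals as bars. Levels run from 5.14 RPKM for Hspe1 to 899 RPKM for Hsp90ab1 in the heterozygous library, and from 7.30 to 1135 RPKM for the same genes in the wild-type library.

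Together the 9 genes took 0.337% of the gene reads in the heterozygous library (exact binomial interval 0.331% to 0.344%), against 0.400% in the wild-type library (0.395% to 0.404%). Most of that difference was Hsp90ab1, which supplied 67.7% of the members' reads in heterozygous and 71.7% in wild-type tissue. Without Hsp90ab1 the other members took 0.109% of gene reads in heterozygous and 0.113% in wild-type tissue. After TMM scaling, the summed log2 ratio was -0.30 (-0.33 to -0.27) with it and -0.11 (-0.16 to -0.05) without it. The shares above are instead of total gene reads, and the scales differ. The log2 ratio of library sizes, heterozygous over wild-type, was -1.15 by total gene reads and -1.10 by TMM. The summed ratios were not recomputed with other scalings, so whether the members without Hsp90ab1 stay below equal levels under each scaling was not tested.

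The HSP90 pair encodes the cytosolic HSP90 isoforms, of which Hsp90aa1 is the more stress-inducible and Hsp90ab1 the more constitutive. Hsp90ab1 (ENSMUSG00000023944) lies at chr17:45567778-45573261 in GRCm38 and had 7971 reads in the heterozygous library (95% Poisson interval 7797 to 8148), against 22279 in the wild-type library (21987 to 22574). Its log2 ratio was -0.38 (-0.42 to -0.35), the narrowest interval of the set. Hsp90aa1 (ENSMUSG00000021270), at chr12:110691036-110696395, had 501 reads in the heterozygous (458 to 547) and 1445 in the wild-type library (1371 to 1521). That is 43.4 RPKM against 56.5 RPKM, and a log2 ratio of -0.43 (-0.58 to -0.28). Both isoforms were thus lower in the heterozygous library by nearly the same factor. Within a library, where scaling plays no part, Hsp90ab1 stood 20.7 times above Hsp90aa1 per length in heterozygous tissue (18.9 to 22.7) and 20.1 times in wild-type tissue (19.0 to 21.2). The ratio of these proportions, heterozygous over wild-type, was 1.03 (0.929 to 1.15), and its interval held the same proportion between the isoforms in both libraries. The isoforms are similar in sequence, and how reads that match both were counted is not given in the sources used here.

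Hspa8 (ENSMUSG00000015656) encodes the constitutive cytosolic HSP70, also called HSC70, which assists newly made proteins and strips clathrin from vesicles. It lies at chr9:40801276-40805202 and had 123 reads in the heterozygous library (102 to 147), against 194 in the wild-type library (168 to 223). Its level was 14.6 RPKM in heterozygous and 10.4 RPKM in wild-type tissue, and its log2 ratio was 0.44 (0.11 to 0.78). The gene therefore held a middling place in both profiles, above 65.0% of the genes in heterozygous and 56.0% in wild-type tissue. HSP70 family members are close in sequence and Hspa8 is known to have processed copies in the genome, although the RefSeq table names 0 pseudogenes after it, and the treatment of reads that match several places is not known here. The part of such copies in the level and in the ratio was not tested.

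Hspa4 (ENSMUSG00000020361) encodes a protein of the HSP110 family, which exchanges the nucleotide on HSP70 proteins. It lies at chr11:53259814-53300479 and had 1076 reads in the heterozygous (1013 to 1142) and 3146 in the wild-type library (3037 to 3258). Its log2 ratio of -0.45 (-0.55 to -0.35) was the lowest among the tested members. The ratios of Hspa8 and its exchange factor therefore stood on opposite sides of equal levels, at 0.99 and -1.14 robust SDs from the medians of their read groups. With the wild-type library thinned by a single random draw, which discards reads and widens intervals, the interval of Hspa8 held equal levels (-0.01 to 0.79). The part of Hspa8 copies in this contrast was not tested. Per length, Hspa8 was at 0.221 of Hspa4 in the heterozygous library (0.181 to 0.266) and at 0.119 in the wild-type library (0.102 to 0.138). That proportion was 1.85 times higher in the heterozygous library (1.45 to 2.36), the largest such difference among 10 pairs compared. The pairs were chosen with earlier results of these data known, and their intervals are not adjusted for the number of pairs. The proportion of Hspa4 to Hsp90ab1 differed by less than counting error, at 0.0737 in heterozygous and 0.0771 in wild-type tissue, a ratio of 0.956 (0.887 to 1.03).

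Of the 3 small heat shock genes, Cryab and Hspb8 had intervals above equal levels and that of Hspb1 held equal levels. Cryab (ENSMUSG00000032060) encodes alphaB-crystallin, which holds unfolded proteins and is abundant in lens, muscle and oligodendrocytes. It lies at chr9:50745951-50756636 and had 1677 reads in the heterozygous library (1598 to 1759), against 3162 in the wild-type library (3053 to 3274). Its log2 ratio was 0.19 (0.10 to 0.27). Hspb8 (ENSMUSG00000041548) encodes a partner of the cochaperone BAG3 in the removal of misfolded proteins by autophagy. It had 241 reads in the heterozygous (212 to 273) and 378 in the wild-type library (341 to 418). That is 37.7 RPKM against 26.7 RPKM, with a log2 ratio of 0.45 (0.21 to 0.69), the highest of the 9. Hspb1 (ENSMUSG00000004951) encodes the mouse HSP25, which binds unfolded proteins and actin filaments. With 62 reads in the heterozygous (47.5 to 79.5) and 173 in the wild-type library (148.2 to 200.8), its level was 19.5 RPKM against 24.6 RPKM and its log2 ratio -0.38 (-0.82 to 0.05).

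Proportions between genes rest on the same reads as these ratios, and restate them without any scaling between libraries. Hspb8 was 1.93 times Hspb1 per length in the heterozygous library (1.46 to 2.60), against 1.09 times in the wild-type library (0.905 to 1.31), a 1.78-fold higher proportion (1.26 to 2.52). For Cryab over Hspb1 the proportion was 25.8 in heterozygous and 17.4 in wild-type tissue, 1.48-fold higher (1.09 to 2.02). Cryab and Hspb8 differed less from each other, with a proportion of 13.4 in heterozygous and 16.1 in wild-type tissue, a ratio of 0.832 (0.698 to 0.993). Against Hsp90ab1, the most abundant chaperone of the set, Cryab stood at 0.560 in heterozygous and 0.378 in wild-type tissue, 1.48-fold higher (1.39 to 1.58). Hspb8 stood at 0.0420 and 0.0235 of Hsp90ab1 in the heterozygous and wild-type libraries, 1.78-fold higher (1.51 to 2.10). These values set single libraries beside each other, and whether the proportions vary as much between wild-type pools was not tested.

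**Figure D4:**
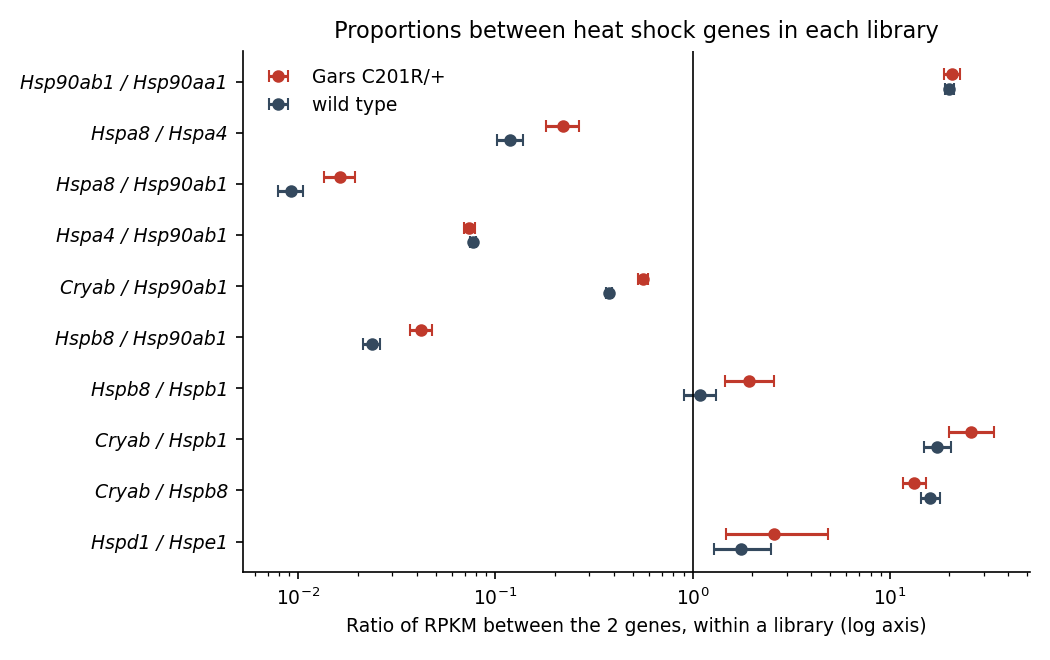
Points give the ratio of RPKM between both genes of a pair within the heterozygous library (red, upper) and the wild-type library (dark, lower) on a log axis, with 95% counting intervals as bars. The proportions of Hsp90ab1 to Hsp90aa1 and of Hspa4 to Hsp90ab1 nearly coincide, whereas Hspa8, Hspb8 and Cryab lie farther right in the heterozygous library when set against Hsp90ab1.

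The neuropathy-linked pair Hspb1 and Hspb8 lies on the same chromosome, at chr5:135887919-135889563 on the plus strand and chr5:116408491-116422864 on the minus strand. Heat shock genes are known for heat shock elements, repeats of the letters GAA and TTC that bind heat shock factors. Promoter windows of 300 bases, from 250 before to 50 after a transcription start, were searched for neighbouring repeats, GAANNTTC or TTCNNGAA. Each is its own reverse complement, so 1 search covers both strands, and overlapping matches were counted. The RefSeq promoter table for GRCm38.p6 held windows for 5 of the 9 members, Hspa4, Hspb1, Hspb8, Hspd1 and Hspe1, and not for the other 4. At least 1 match was present in 15.1% of all 32851 windows and at least 2 in 1.96%. Positions are counted from the first transcribed base at 0, and the matches are in capitals. Hspb1 holds 2 matches, from -117 to -110 and from -97 to -90. Hspb8 holds 1, which lies just inside the transcript from 2 to 9. The first match of Hspb1 and that of Hspb8 share the same letters, and both stretches are shown so that these shared letters can be seen.
Hspb1, chr5:135887669-135887918, plus strand: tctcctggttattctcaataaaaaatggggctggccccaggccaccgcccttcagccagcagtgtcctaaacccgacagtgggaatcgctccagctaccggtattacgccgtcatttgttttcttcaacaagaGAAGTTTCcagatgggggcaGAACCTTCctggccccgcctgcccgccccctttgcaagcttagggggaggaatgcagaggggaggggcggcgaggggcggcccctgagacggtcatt
Hspb8, chr5:116422847-116422876, minus strand: cccagaagccaggaGAAGTTTCtaggctcg

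The window of Hspa4 held no match of these letters. A match is a description of the letters and says nothing about the binding of a factor in these animals.

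Hspd1 (ENSMUSG00000025980) encodes the mitochondrial chaperonin HSP60 and Hspe1 (ENSMUSG00000073676) its lid HSP10, which work as 1 complex. They are neighbours on chromosome 1 with ranges that overlap, and are transcribed in opposite directions. Hspd1 lies at chr1:55077833-55088243 on the minus strand and Hspe1 at chr1:55088148-55091317 on the plus strand. The outer of the 2 Hspd1 starts, at which the Hspd1 range ends, has a window without a match. The Hspe1 window and that of the inner Hspd1 start share 285 bases, read from opposite strands. Both hold the same 3 overlapping matches, a run of 4 repeats. It runs from -89 to -72 relative to the Hspe1 start and from -144 to -127 relative to the inner Hspd1 start. A run of 4 repeats, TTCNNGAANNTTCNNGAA or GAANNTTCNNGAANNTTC, each its own reverse complement, occurred in 8 of all windows (0.0244%), 2 of which are these. The stretch before the Hspe1 start is shown because it lies in the windows of both genes.
Hspe1, chr1:55087898-55088147, plus strand: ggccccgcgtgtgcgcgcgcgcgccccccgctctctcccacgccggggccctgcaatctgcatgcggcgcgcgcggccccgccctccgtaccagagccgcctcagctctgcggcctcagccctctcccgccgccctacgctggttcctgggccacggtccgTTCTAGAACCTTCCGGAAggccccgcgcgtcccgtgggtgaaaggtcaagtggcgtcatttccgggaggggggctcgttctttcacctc

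**Figure D5:**
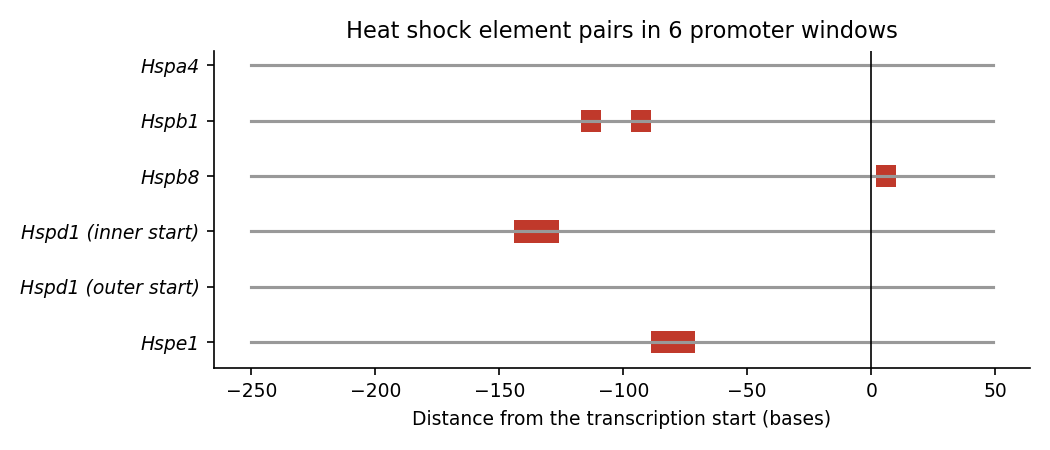
Grey lines are the 6 promoter windows of the 5 members in the RefSeq table, red boxes the heat shock element matches, and the horizontal axis gives the distance from the transcription start in bases. Hspb1 has 2 separate matches, Hspb8 has 1 after the start, Hspe1 and the inner Hspd1 start share 3 overlapping matches, and the Hspa4 window and the outer Hspd1 window have none.

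Hspd1 had 113 reads in the heterozygous library (93.1 to 136), against 244 in the wild-type library (214 to 277). Its level was 13.2 RPKM in heterozygous and 12.9 RPKM in wild-type tissue, and its log2 ratio was -0.01 (-0.34 to 0.32), the closest of the set to equal levels. Hspe1 had 14 reads in the heterozygous library (7.65 to 23.5) and 44 in the wild-type library (32.0 to 59.1). With so few reads its log2 ratio of -0.54 had an interval from -1.53 to 0.34, which holds levels from 0.345 to 1.27 of the wild-type level. Hspd1 stood at 2.58 times Hspe1 per deposited length in the heterozygous library (1.47 to 4.87). In the wild-type library it stood at 1.77 times (1.28 to 2.50), a difference between libraries within counting error. Both proportions rest on deposited lengths of 2423 nt for Hspd1 and 774 nt for Hspe1. Proportions per coding length were not computed. The RefSeq gene table names 23 pseudogenes after Hspd1, 7 after Hspe1 and 0 after the other members. Only names that begin with the gene symbol and a hyphen were counted, so copies under other names are missed. How reads that match a gene and its pseudogenes were counted is not known, so the levels of Hspd1 and Hspe1 are uncertain, as is that of Hspa8. The part of such copies was not tested for any member.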

How the data were processed

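Ribosome-protected fragments of spinal cord were sequenced in 1 heterozygous and 1 wild-type library. Per the labels' protocols, fragments were made with RNase I from lysates pooled over 3 animals. Per the submitters' processing notes, Bowtie 1.2.2, HTSeq 0.9.1 and GRCm38 were used. The annotation, strand setting and counted part of a gene are not stated there. Per the file headers, the authors deposited read counts and RPKM values per gene. Counts were used as deposited, and the lengths behind the deposited RPKM were recovered from them. They did not exceed the RefSeq gene span for any of the 9 members.

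Libraries were scaled with TMM in edgeR 4.0.16 (R 4.3.3) over genes, without the 18 ERCC spike-ins, so directions are relative to the gene reads. Ratios used a prior count of 0.5, and their intervals are exact conditional binomial (Clopper-Pearson) intervals at 95%. Proportions between genes have conditional odds-ratio intervals. Reads may not be independent molecules, so all intervals cover counting error only. Alternatives were other scalings (among them size factors of DESeq2 1.42.0), read minimums, prior counts, folds and intervals, and a single random thinning of the wild-type library.

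The rule for the members uses no measured value, but the members, lists and tests were chosen with earlier results of these data known. All 9 members are named. The lists of other chaperones and cell type markers were not analysed here, because 0 identifiers were paired with symbols in the reference table of 49997 genes. Reads per codon were not computed, since no protein table was used here. Other steps ran in Python 3.11.15 (scipy 1.17.1, pandas 2.3.3, numpy 2.4.6), with plots by matplotlib 3.10.9.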

Additional observations from a re-analysis of the deposited data

Results flagged for a closer look

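The ERCC spike-ins, which lie outside the gene comparisons, made up 0.650% of the listed reads in the heterozygous library, against 0.00669% in the wild-type library. Proportions between heat shock genes within a library do not depend on them.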

How the results depend on the processing

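The counts of heat shock genes called higher and lower stayed at 0 and 0 under every scaling tried. The other read minimums, the 2-fold limit and the 99% interval could not change these counts, since no member, Hspe1 included, reached 1.5-fold. With the interval alone they were 3 and 3 of 8. Over all genes, that setting gave 2309 higher and 2741 lower, a 2-fold limit 166 and 267, and a minimum of 500 reads 158 and 348. A minimum of 20 reads gave 1321 higher and no minimum 1379. Of 63 recomputed ratios of single members, 61 stayed inside the counting interval of the reported value. The others were Hsp90ab1 at -0.33 with total gene reads and -0.34 with the upper quartile. Hspd1 changed sign under these scalings, between -0.11 and 0.04 over the alternatives. In the thinned wild-type library Hspe1 was at -0.92, the interval of Hspa8 (0.39, from -0.01 to 0.79) held equal levels, and that of Hspb1 (-0.49, from -0.98 to -0.0022) did not. The thinning was a single random draw that discarded wild-type reads, which widens intervals. Other draws were not made, so these shifts cannot be told apart from the noise of the draw. The median over the tested members ran from -0.20 to -0.14, and was -0.38 with Hspe1, an alternative added after seeing the data. The alternatives for the chaperone lists and for coding length were not run, for lack of symbols and protein lengths. No replicate could be left out. No paired analysis was possible because there is 1 library per genotype. Depth limits Hspe1, Hspb1, Hspd1 and Hspa8 most.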
